A study of Mus musculus with 4 samples.

Results

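Fc receptors, the proteins by which immune cells bind the constant part of antibodies, were followed in lung CD11b+Ly6g+ myeloid-derived suppressor cells (MDSCs) through 6 genes: Fcgr1, Fcgr3, Fcgr4, Fcgr2b, Fcer1g and Fcgrt. They were chosen by gene symbol, as 6 of the 54532 genes in the count table, and all 6 were among the 16367 genes that had at least 10 counts in at least 1 library. The cells came from C57BL/6 mice aged 6 to 8 weeks in a pre-metastatic niche (PMN) model, in which all groups received medium conditioned by B16F10 melanoma cells (MCM) intraperitoneally, 300 μL per mouse for 10 days, and a tail vein injection of live B16F10 cells on day 7. The control group had no peptide named in its labels, and the other groups received TP5, sFD17 or FR17 under the skin from day 3, each at 40 μM/kg per day, until lungs were taken on day 10. TP5 is thymopentin, a free pentapeptide. FR17 carries TP5 on a self-assembling backbone through a linker that matrix metalloproteinase 2 cuts, and sFD17 has the same build with the pentapeptide scrambled. Each group was 1 RNA-seq library from the pooled sorted cells of 10 to 12 mice, so there is no replicate check, and no difference below was tested against variation between mice or libraries.

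Fc gamma receptors bind IgG on myeloid cells. Fcgr1 (the high-affinity receptor), Fcgr3 and Fcgr4 are activating and reach the surface with the common γ chain encoded by Fcer1g, whose cytoplasmic ITAM recruits the kinase Syk, whereas Fcgr2b carries its own ITIM, recruits phosphatases and restrains the same cells. Fcgrt encodes the heavy chain of FcRn, which pairs with β2-microglobulin, resides mainly in endosomes and returns IgG and albumin to the cell surface.

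Fcgr2b, Fcgr4, Fcgr3 and Fcer1g lie within 275.7 kb of chromosome 1 (GRCm38). Fcgr2b (ENSMUSG00000026656) occupies chr1:170958617-170976547 on the minus strand, Fcgr4 (ENSMUSG00000059089) chr1:171018920-171029761 on the plus strand, Fcgr3 (ENSMUSG00000059498) chr1:171051174-171064935 on the minus strand and Fcer1g (ENSMUSG00000058715) chr1:171229572-171234365 on the minus strand. Fcgr1 (ENSMUSG00000015947) is at chr3:96282909-96293969 and Fcgrt (ENSMUSG00000003420) at chr7:45092990-45103851, both on the minus strand.

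The promoters of Fcgr4, Fcgr1 and Fcgrt are shown because these genes had, in turn, the largest value above control in the sFD17 library, the largest value below control in the TP5 library and the widest range of all members. Each runs from 250 bases before to 50 bases after the RefSeq start site (GRCm38.p6), and capitals mark matches to 3 motifs searched on both strands: TTCNNNGAA (the interferon-γ activation site, GAS), GAAA followed after any 2 bases by a second GAAA (the interferon-stimulated response element, ISRE) and GAGGAA (an ETS core, TTCCTC on the other strand).
Fcgr4, chr1:171018676-171018975, plus strand: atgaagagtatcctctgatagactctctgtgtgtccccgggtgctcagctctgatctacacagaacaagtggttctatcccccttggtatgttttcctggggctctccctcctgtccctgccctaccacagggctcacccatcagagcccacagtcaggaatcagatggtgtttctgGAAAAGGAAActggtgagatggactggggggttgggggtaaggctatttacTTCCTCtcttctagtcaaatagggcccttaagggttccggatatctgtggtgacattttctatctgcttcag
Fcgr1, chr3:96293920-96294219, minus strand: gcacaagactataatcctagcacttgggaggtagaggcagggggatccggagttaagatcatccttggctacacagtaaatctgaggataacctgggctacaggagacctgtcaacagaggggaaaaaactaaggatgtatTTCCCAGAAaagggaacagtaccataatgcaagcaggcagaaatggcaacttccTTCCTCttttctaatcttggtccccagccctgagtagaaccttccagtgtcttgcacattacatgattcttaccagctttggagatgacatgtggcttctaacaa
Fcgrt, chr7:45103773-45104072, minus strand: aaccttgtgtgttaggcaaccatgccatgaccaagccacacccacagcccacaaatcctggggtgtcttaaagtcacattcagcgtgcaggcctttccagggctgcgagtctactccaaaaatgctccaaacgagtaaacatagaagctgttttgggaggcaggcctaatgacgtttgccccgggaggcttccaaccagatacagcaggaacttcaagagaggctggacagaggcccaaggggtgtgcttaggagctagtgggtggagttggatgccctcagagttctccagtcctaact
The Fcgr4 promoter held the ISRE letters GAAAAGGAAA, whose first base was at -73 from the start site, and an ETS core whose first base was at -22. In the Fcgr1 promoter the GAS letters TTCCCAGAA began at -109 and an ETS core at -55. Both RefSeq promoters of Fcgr3 held an ETS core on the opposite strand, and those of Fcgr2b, Fcer1g and Fcgrt matched none of the 3 motifs. Of 32851 RefSeq promoters of this length, 3.44% held the ISRE letters, 8.30% the GAS letters and 28.3% the ETS core, and a match is a description of the letters only.

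Reads of Fcgr2b and Fcgr3 are the ones that could be exchanged between members, since their coding sequences were identical at 491 of 509 aligned bases (96.5%). The stretch of 120 bases in which they differed most is shown, with its 11 differing bases in capitals, because no other window of that length in the alignment differed at more positions, and the longest identical run was 129 bases.
Fcgr2b, chr1:170968109-170968228, minus strand: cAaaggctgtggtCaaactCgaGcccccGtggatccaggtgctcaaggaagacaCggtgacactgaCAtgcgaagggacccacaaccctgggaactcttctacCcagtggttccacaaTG
Fcgr3, chr1:171057820-171057939, minus strand: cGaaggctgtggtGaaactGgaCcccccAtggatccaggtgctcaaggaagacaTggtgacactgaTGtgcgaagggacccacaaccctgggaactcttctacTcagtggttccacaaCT
Of all 50-base words in its transcripts, 4.38% of those of Fcgr2b and 9.58% of those of Fcgr3 also occurred in another gene, and 166 words were shared by this pair. No such word was found for Fcgr1, Fcgr4, Fcer1g or Fcgrt, so the counts of Fcgr2b and Fcgr3 are the less certain ones. Fcgr2b also shares 155 exon bases with Gm38204 on the opposite strand, which had 1 to 3 counts per library.

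The libraries held between 15543071 (sFD17) and 19638228 (FR17) counts. Levels are given as CPM, counts relative to library sizes that were scaled by TMM, with 95% exact Poisson intervals that cover counting error only. Both sort markers were present, and their log2 ratios to control in the TP5, sFD17 and FR17 libraries were -0.04, 0.18 and -0.34 for Itgam (CD11b) and 0.42, 0.61 and 0.31 for Ly6g. The 18 neutrophil markers took 3.99% to 4.53% of counts, and 16 markers of alveolar and interstitial macrophages, cells that normally lack Ly6g, summed to between 3881 and 12802 CPM, with no marker of either list at 0. Here, as in any bulk sample, fewer cells of a type and less RNA per cell cannot be told apart.

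Per kilobase of gene length, the γ chain was the most abundant transcript of the family and the high-affinity receptor the least abundant in every library. In the control library Fcer1g stood at 715 CPM per kb, Fcgr3 at 297, Fcgr4 at 112, Fcgrt at 98.3, Fcgr2b at 55.8 and Fcgr1 at 17.1. The order was the same in the TP5 library. In the sFD17 library Fcgrt (32.4 CPM per kb) and Fcgr2b (33.2) had overlapping counting intervals, and in the FR17 library Fcgrt (128) stood above Fcgr4 (105).

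**Figure D1:**
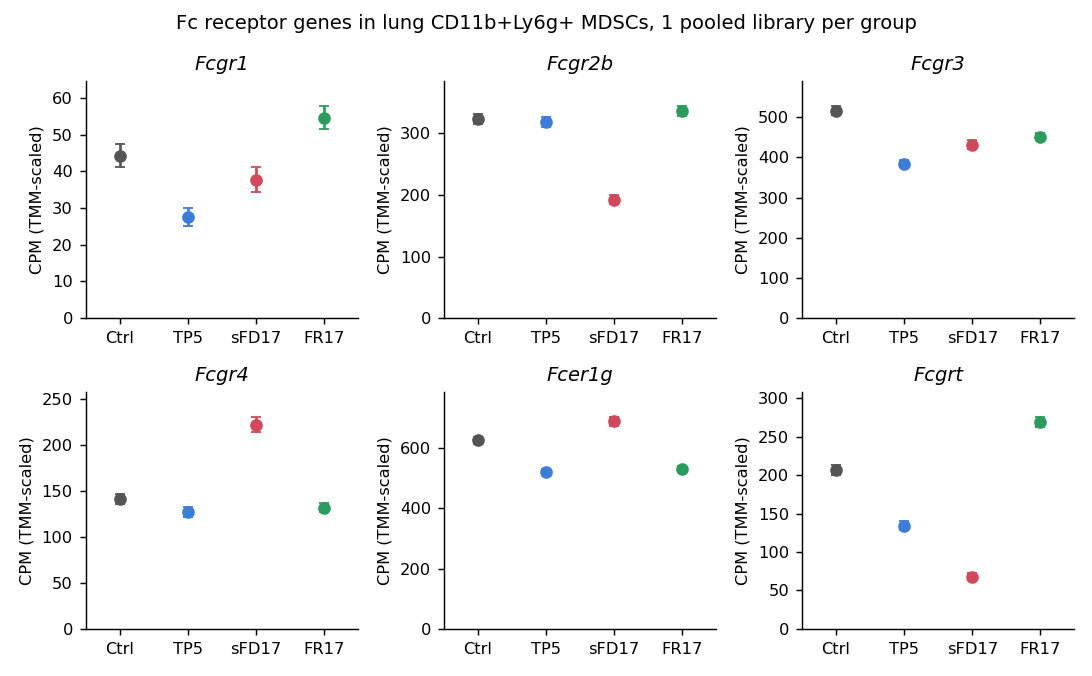
Level of each Fc receptor gene (CPM on TMM-scaled library sizes, linear axes from 0) in the Ctrl, TP5, sFD17 and FR17 libraries; points are single pooled libraries and bars are 95% exact Poisson intervals for counting error only. Fcgrt spans 68.1 CPM in sFD17 to 269 in FR17, Fcgr2b is lowest in sFD17 (192) and Fcgr4 is highest there (222).

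Among the activating receptors, Fcgr1 and Fcgr3 were lowest in the TP5 library (Fcgr3 in sFD17 when library size alone was the scaling), and Fcgr4 was highest in the sFD17 library. Fcgr1, which binds monomeric IgG2a, had 27.5 CPM in TP5, 37.7 in sFD17, 44.2 in control and 54.5 in FR17. The TP5 value was 1.60-fold below control (log2 ratio -0.68, 95% counting interval -0.85 to -0.51), and the FR17 value was 1.23-fold above it (0.30, 0.17 to 0.44). Against control, 1.20% of the 4493 genes with at least 400 counts in every library were at least as low in TP5.

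Fcgr3, a low-affinity receptor for immune complexes, had 384 CPM in TP5, 432 in sFD17, 451 in FR17 and 516 in control. All peptide libraries were below control, with log2 ratios of -0.42, -0.26 and -0.19. The FR17 value was close to the median of the 4493 well-counted genes in that comparison, which was -0.18, and with library size alone as the scaling it was above 0, at 0.05.

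Fcgr4, the mouse receptor of intermediate affinity found on neutrophils and monocytes, had 127 CPM in TP5, 132 in FR17, 141 in control and 222 in sFD17. The sFD17 library stood apart from the others, 1.57-fold above control (log2 ratio 0.65, 0.58 to 0.73), whereas the TP5 and FR17 ratios were -0.15 and -0.10, the latter 0.15 with library size alone. Of the well-counted genes, 7.97% were at least as high in sFD17, where their median was 0.12.

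The inhibitory receptor gene Fcgr2b was lowest in the library where Fcgr4 was highest. It had 192 CPM in sFD17, 318 in TP5, 323 in control and 336 in FR17. The control, TP5 and FR17 libraries lay within 1.06-fold of each other, and the sFD17 library was 1.68-fold below control (log2 ratio -0.75, -0.82 to -0.68). Of the well-counted genes, 1.58% were at least as low. With library size alone the Fcgr2b ratio to control was 0.30 in FR17 and -0.97 in sFD17.

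With TMM scaling Fcer1g, the γ chain shared by the activating receptors, varied least of all members, close to Fcgr3 (1.34-fold range). With DESeq2's size factors the widest log2 ratio was 0.45 for Fcer1g (sFD17 against TP5) and -0.43 for Fcgr3 (TP5 against control), so this order turned. The Fcer1g level was 520 CPM in TP5, 531 in FR17, 625 in control and 688 in sFD17, a 1.32-fold range. The TP5 ratio to control was -0.27 (log2), that of sFD17 0.14 and that of FR17 -0.23, and with library size alone the FR17 ratio became 0.01 and the sFD17 ratio -0.08.

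Fcgrt varied most, over a 3.95-fold range, and was the only member at least 2-fold from control in any library. It had 68.1 CPM in sFD17, 135 in TP5, 207 in control and 269 in FR17. The sFD17 library was 3.03-fold below control (log2 ratio -1.60, -1.71 to -1.49), the TP5 library 1.53-fold below (-0.62, -0.69 to -0.54) and the FR17 library above control (0.38, 0.32 to 0.44). Of the well-counted genes, 0.334% were at least as low as Fcgrt in sFD17. B2m, which encodes the partner chain of FcRn, had log2 ratios of -0.36, 0.13 and -0.14 in TP5, sFD17 and FR17. The sFD17 ratio of B2m was close to the median of the well-counted genes, 0.12, and became -0.09 with library size alone.

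**Figure D2:**
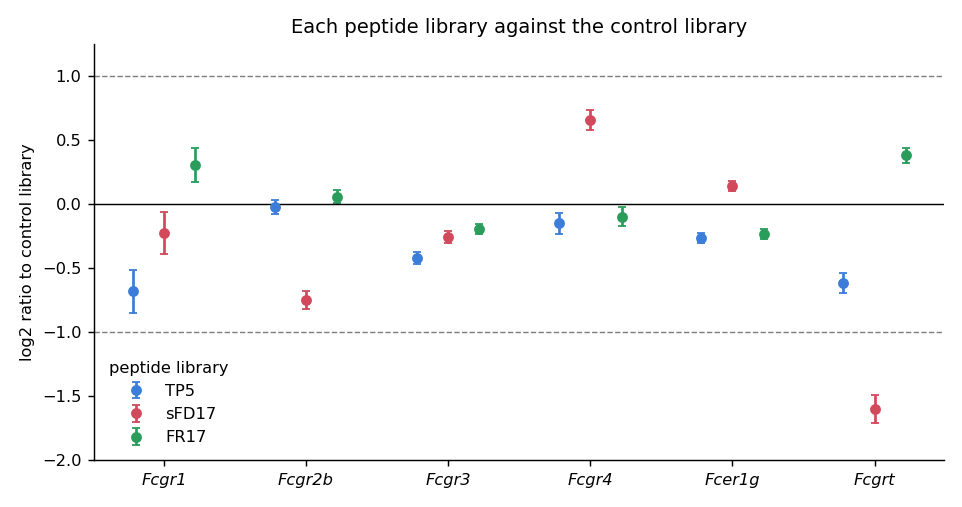
Log2 ratio of each peptide library to the control library for the 6 genes; bars are 95% counting intervals and dashed lines mark 2-fold. Fcgrt in sFD17 (-1.60) is the single point past a dashed line, and all 6 TP5 points are below 0, that of Fcgr2b (-0.02, or 0.03 with library size alone) with an interval that includes 0.

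Counted against the whole table, the family did not stand out in number. In TP5, 0 of 6 members were at least 2-fold from control, beside 8.17% of all genes tested, and all 6 ratios were below 0 (median -0.35, against 0.00 for all genes). That of Fcgr2b was -0.02, with an interval that includes 0 (-0.08 to 0.03), and it was 0.03 with library size alone. In sFD17, 1 of 6 was past 2-fold, beside 11.8% of all genes, with 2 members above 0 and 4 below (median -0.24, against -0.03). In FR17, 0 of 6 were past 2-fold, beside 7.48%, with 3 above and 3 below (median -0.02, against 0.02). Low counts raise these background shares. Among the 4493 well-counted genes, which include all members, the shares past 2-fold were 0.334%, 3.29% and 0.913% for TP5, sFD17 and FR17. The 3 comparisons share the control library and are not independent.

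The balance of activating to inhibitory receptor counts was highest in the sFD17 library. The ratio of summed Fcgr1, Fcgr3 and Fcgr4 counts to Fcgr2b counts was 1.69 in TP5 (95% counting interval 1.64 to 1.75), 1.90 in FR17 (1.85 to 1.95), 2.17 in control (2.10 to 2.24) and 3.60 in sFD17 (3.45 to 3.76). It was thus 1.66-fold the control value in sFD17, and below the control value in TP5 and FR17. A ratio within a library does not depend on scaling between libraries, but it compares reads and not molecules. Per kilobase it was 6.06 in TP5, 6.65 in FR17, 7.64 in control and 13.3 in sFD17.

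Each activating receptor gave its highest ratio to Fcgr2b in the sFD17 library. Fcgr4 to Fcgr2b was 0.437, 0.399, 1.16 and 0.393 in the control, TP5, sFD17 and FR17 libraries, so that Fcgr4 exceeded Fcgr2b in counts in sFD17 only. Fcgr3 to Fcgr2b was 1.60, 1.21, 2.25 and 1.34 in the same order, and Fcgr1 to Fcgr2b was 0.137, 0.0865, 0.196 and 0.162. Leaving out Fcgr3, the gene that shares sequence with Fcgr2b, the summed ratio was 0.486 in TP5, 0.555 in FR17, 0.573 in control and 1.35 in sFD17. As a share of all Fc gamma receptor counts, Fcgr2b made up 21.7% in sFD17, 31.5% in control, 34.5% in FR17 and 37.1% in TP5, and Fcgr4 made up 25.1%, 13.8%, 13.5% and 14.8% in these libraries.

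**Figure D3:**
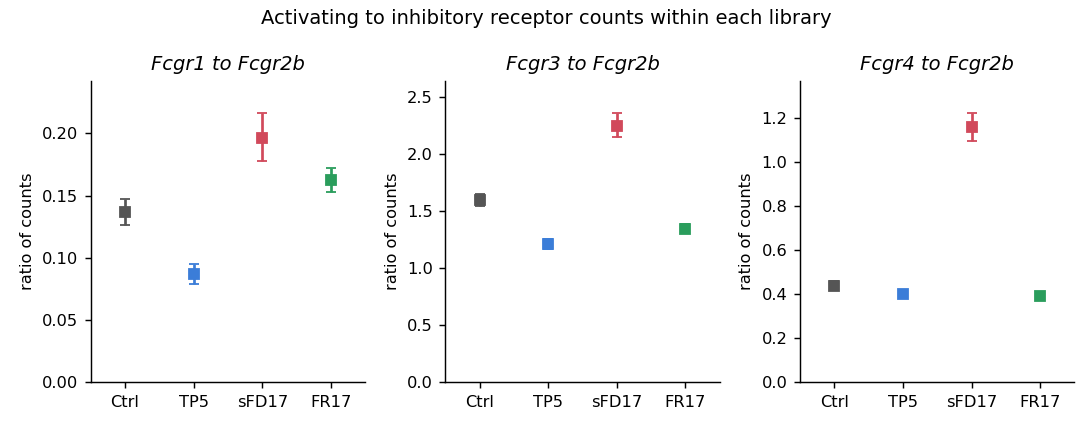
Ratio of the counts of Fcgr1, Fcgr3 and Fcgr4 to those of Fcgr2b within each library (linear axes from 0); bars are 95% counting intervals. The sFD17 library is highest in all panels, and Fcgr4 to Fcgr2b reaches 1.16 there against 0.393 to 0.437 in the other libraries.

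The peptides were given at matched dose and time, and all 6 pairs of libraries were compared by their ratios, without a test against replicate spread. FR17 and sFD17 differ in whether the carried pentapeptide is TP5 or its scrambled form. Between them Fcgrt differed most, 3.94-fold higher in FR17 (log2 ratio 1.98, 1.88 to 2.08), and it was the 1 member of 6 past 2-fold, beside 22.1% of all genes and 13.9% of the well-counted ones. Fcgr2b was 1.75-fold higher in FR17 (0.81, 0.74 to 0.87) and Fcgr1 1.44-fold higher (0.53, 0.38 to 0.68). Fcgr4 was 1.68-fold lower in FR17 (-0.75, -0.83 to -0.68) and Fcer1g 1.29-fold lower (-0.37, -0.41 to -0.33). For Fcgr3 the ratio was 0.06 (0.02 to 0.11). The median of the well-counted genes in this pair was -0.31, and library size alone moved the median of all genes tested by 0.44, with Fcgr1 at 0.99, Fcgr2b at 1.27, Fcgr3 at 0.52, Fcgr4 at -0.29, Fcer1g at 0.09 and Fcgrt at 2.44. Of the well-counted genes, 21.97% were at least as low as Fcgr4 in FR17, and 0.267% were at least as high as Fcgrt.

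FR17 and free TP5 differ in the assembling backbone and linker. Fcgrt (log2 ratio 1.00, 0.93 to 1.07) and Fcgr1 (0.98, 0.83 to 1.14) were both higher in FR17, just under 2-fold at 1.997 and 1.98, so that 0 of 6 members passed 2-fold beside 9.92% of all genes and 0.69% of the well-counted ones. Of the latter, 0.423% were at least as high as Fcgrt and 0.445% as Fcgr1. The remaining ratios were 0.23 for Fcgr3 (0.19 to 0.28), 0.08 for Fcgr2b (0.03 to 0.13), 0.05 for Fcgr4 (-0.02 to 0.13) and 0.03 for Fcer1g (-0.01 to 0.07). The last 2 intervals include 0, which covers counting error and does not show that the peptides act alike.

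sFD17 against TP5 also gave 0 of 6 members past 2-fold, beside 12.4% of all genes and 3.85% of the well-counted ones. Fcgrt was 1.97-fold lower in sFD17 (-0.98, -1.09 to -0.87) and Fcgr2b 1.66-fold lower (-0.73, -0.80 to -0.66), while Fcgr4 was 1.75-fold higher (0.81, 0.73 to 0.89). Fcgr1 (0.45), Fcer1g (0.40) and Fcgr3 (0.17) had smaller ratios above 0, of which that of Fcgr3 became -0.10 with library size alone.

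Markers of several other cell types also differed between the libraries. The summed level of the 16 macrophage markers was 3881 CPM in sFD17, 7758 in TP5, 10293 in control and 12802 in FR17, the same order as for Fcgrt. In sFD17 all 16 markers were below control and 9 were at least 2-fold lower, beside 6.47% of all genes, with log2 ratios from -2.31 to -0.34 and a median of -1.40. In FR17 14 of 16 were above control, and in TP5 14 of 16 were below. Per 100 macrophage marker counts Fcgrt had 1.73 counts in TP5, 1.76 in sFD17, 2.01 in control and 2.10 in FR17, a narrower range than its level. For endothelial markers in TP5, 9 of 10 were below control and 5 at least 2-fold lower (median -0.997), beside 4.99% of all genes, and in FR17 against TP5 8 of 10 were at least 2-fold higher (median 1.46), beside 7.04%. In sFD17, where Fcgrt was lowest, 6 of 10 endothelial markers were above control (median 0.10). Their sum was 154 CPM in TP5, 205 in sFD17, 257 in control and 319 in FR17. All 10 fibroblast markers were below control in TP5 (median -0.81) and 9 of 10 in sFD17 (median -0.54), while in FR17 5 were above and 5 below, with their sum at 0.779-fold of control. A sort for CD11b and Ly6g should remove these cell types, and their part in the Fcgrt result was not tested.

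Set against the macrophage markers, whose sum in sFD17 was 0.377-fold of control, the other members stood highest in the sFD17 library. Per 100 macrophage marker counts Fcgr2b had 3.14, 4.10, 4.95 and 2.62 counts in control, TP5, sFD17 and FR17, and Fcgr4 had 1.37, 1.64, 5.73 and 1.03. Fcgr1 had 0.429, 0.355, 0.972 and 0.426, close to each other outside sFD17, Fcgr3 had 5.01, 4.96, 11.1 and 3.52, and Fcer1g had 6.07, 6.70, 17.7 and 4.15. Per 100 neutrophil marker counts, Fcgr4 had 0.349, 0.301, 0.417 and 0.386 and Fcgrt 0.510, 0.318, 0.128 and 0.787. By this measure Fcgr2b (0.798, 0.753, 0.360 and 0.984) and Fcgr3 (1.27, 0.910, 0.810 and 1.32) were also lowest in sFD17. Fcgr1 and Fcer1g were lowest in TP5. The summed neutrophil markers were 1.32-fold the control level in sFD17, 1.04-fold in TP5 and 0.843-fold in FR17, and the 12 monocyte markers, of which 4 were at least 2-fold higher and 1 lower in sFD17 (median 0.63, beside 5.32% and 6.47% of all genes), were in sum 1.28-fold, 1.09-fold and 0.930-fold in the same order. Per 100 monocyte marker counts Fcgr4 had 2.54 counts in TP5, 3.07 in control, 3.09 in FR17 and 3.77 in sFD17. Fcgr2b had 3.26 in sFD17, 6.35 in TP5, 7.04 in control and 7.87 in FR17. Fcgr3 had 7.33 in sFD17, 7.68 in TP5, 10.6 in FR17 and 11.2 in control. The part of these cells in the Fcgr4 value was not tested either.

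**Figure D4:**
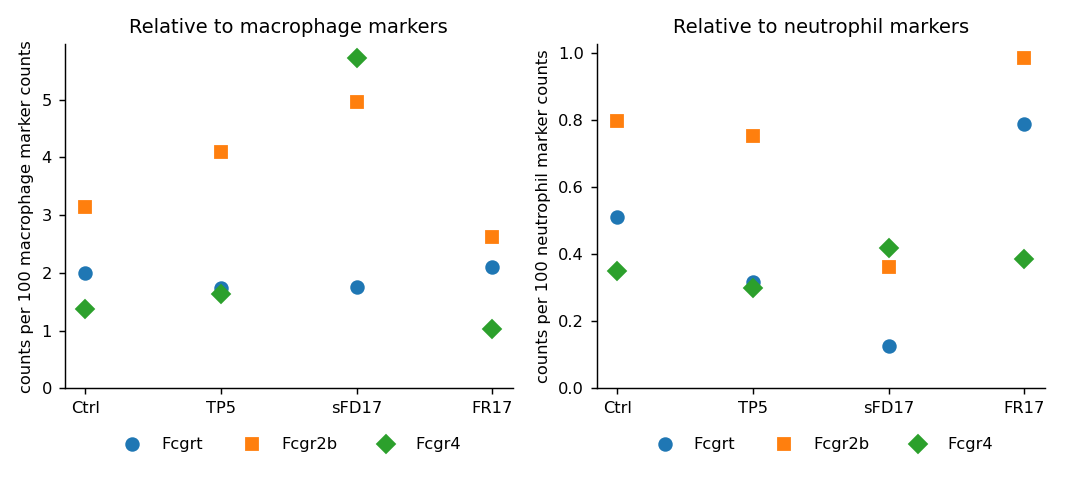
Counts of Fcgrt, Fcgr2b and Fcgr4 per 100 counts of the 16 macrophage markers (left) and of the 18 neutrophil markers (right) in each library, on linear axes from 0, 1 point per library. Fcgrt stays between 1.73 and 2.10 on the left and runs from 0.128 to 0.787 on the right, and Fcgr4 is highest in sFD17 on both sides.

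Interferon response genes also moved in the library where Fcgr4 was highest. In sFD17, 25 of 26 listed genes were above control and 19 were at least 2-fold higher, beside 5.32% of all genes, with a median log2 ratio of 2.01 and a range from -0.06 to 3.98. In TP5 22 of 26 were below control (median -0.31), and in FR17 21 of 26 were (median -0.38). Fcgr1, whose promoter holds the GAS letters, was at -0.23 in sFD17. The part of these genes in the receptor values was not tested.

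Of 38 genes for Fc receptor signaling downstream of the receptors, 0 were past 2-fold in TP5, 1 in sFD17 (lower) and 1 in FR17 (higher) against control, beside 8.17%, 11.8% and 7.48% of all genes. In FR17 against sFD17 3 were at least 2-fold higher and 5 lower, beside 22.1%, and with library size alone 3 in all were past 2-fold. In sFD17 32 of 38 were above control (median log2 ratio 0.28) and in FR17 31 of 38 were below (median -0.25), which is on the same side as the medians of the well-counted genes, 0.12 and -0.18. In TP5 20 were above and 18 below. The gene past 2-fold in sFD17 was Blnk, a B cell linker protein, with 178 counts against 463 in control (-1.02), which was under 2-fold with DESeq2's size factors (-0.98). Like Fcgrt, Blnk was lowest in sFD17 (13.5 CPM) and highest in FR17 (30.1). Of 10 B and plasma cell markers 8 were above control in sFD17 (median 0.25), with their sum at 0.957-fold of control. The part of any cell type in the Blnk value was not tested. In FR17 the gene past 2-fold was Lat, the linker of T and NK cells, with 347 counts against 107 (1.24), while the Src-family kinase Fgr had 8388 against 9767 (-0.66). All 10 T cell markers were above control in FR17 and 4 were at least 2-fold higher (3.91% of all genes were), with a sum 1.81-fold of control, and the NK cell marker sum was 2.68-fold. Their part in the Lat value was not tested. The 2 largest ratios in TP5 were those of the kinase Fyn, 1429 counts against 846 (0.70), and the phosphatase Ptpn11, 1839 against 1228 (0.53).

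The next list held receptors that pair with the γ chain, its sister adaptors and related paired receptors. Of 15 tested genes 14 had a ratio below 0 in TP5, with 0 past 2-fold (8.17% of all genes were) and a median of -0.36. Of those with at least 50 counts, the largest ratios were those of Pira2, an activating partner of the γ chain, with 488 counts against 665 (-0.50), and Clec4n (Dectin-2) with 1722 against 2308 (-0.48). With fewer counts, Ncr1 (13 against 25) reached -0.90 and Klrb1c (22 against 40) -0.86, both named after their values were seen. In sFD17 11 of 15 were above control (median 0.15), among them Tarm1, a γ chain partner on neutrophils, with 1218 counts against 879 (0.83), whereas the T and NK cell adaptor Cd247 had 26 against 62 (-0.86). The genes past 2-fold there were Gp6, with 31 counts against 3, and Klrb1c, with 14 against 40, both named after their values were seen. These are 2 of 15, beside 11.8% of all genes, and with at least 10 counts required in every library 1 was left.

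In FR17 10 of the 15 were below control, with a median of -0.40. The 2 genes past 2-fold above control, Ncr1 (106 counts against 25, log2 ratio 1.57) and Klrb1c (129 against 40, 1.21), are NK cell receptors. Of 12 NK cell markers 10 were at least 2-fold higher in this library, beside 3.91% of all genes. Their sum was 71.2 CPM in control and 190.8 in FR17. Both Ncr1 and Klrb1c belong to this marker list, so the tally and the sum include them. The part of NK cells in the 2 values was not tested. Lilr4b, named after its values were seen, was the gene past 2-fold below control, with 49358 counts against 76250 (-1.07), and 3.57% of all genes were at least 2-fold lower. Tyrobp, the adaptor DAP12, had ratios of -0.23, -0.02 and -0.37 in TP5, sFD17 and FR17.

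Of 12 tested genes among 14 other Fc receptors and Fc-binding genes, 3 were at least 2-fold higher in TP5, 3 higher and 2 lower in sFD17, and 1 higher in FR17. Of all genes, 3.19%, 5.32% and 3.91% were at least 2-fold higher in these libraries, and 6.47% were lower in sFD17. Pigr, the receptor that carries IgA and IgM across epithelium, had 44 counts in control, 99 in TP5 (log2 ratio 1.08) and 127 in sFD17 (1.84). Of 10 lung epithelium markers 7 were above control in either library, their sum being 1.47-fold of control in TP5 and 2.00-fold in sFD17. Fcrla, an Fc receptor-like gene of B cells, had 100 counts in control, 214 in TP5 (1.03) and 199 in FR17 (0.54), and of 10 B and plasma cell markers 8 were above control in TP5 (median 0.63) and 9 in FR17 (0.45). The part of these cells in either value was not tested. Fcrls, another Fc receptor-like gene, had 1851 counts in control, 649 in sFD17 (-1.15) and 3739 in FR17 (0.57), and like Fcgrt it was lowest in sFD17 and highest in FR17. The single gene past 2-fold in FR17, named after its values were seen, was the IgE receptor gene Fcer1a, with 27 counts against 5, and with at least 10 counts required in every library the number past 2-fold there was 0. Of 12 markers of mast cells, basophils and eosinophils 11 were above control in FR17 and 7 at least 2-fold higher (median 1.10), beside 3.91% of all genes. Their sum was 0.553-fold of control, a fall that rests on the 1 marker below control (-0.91). This list shares Hdc with the neutrophil list and Siglecf with the macrophage list. The part of these cells in the Fcer1a value was not tested.

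**Figure D5:**
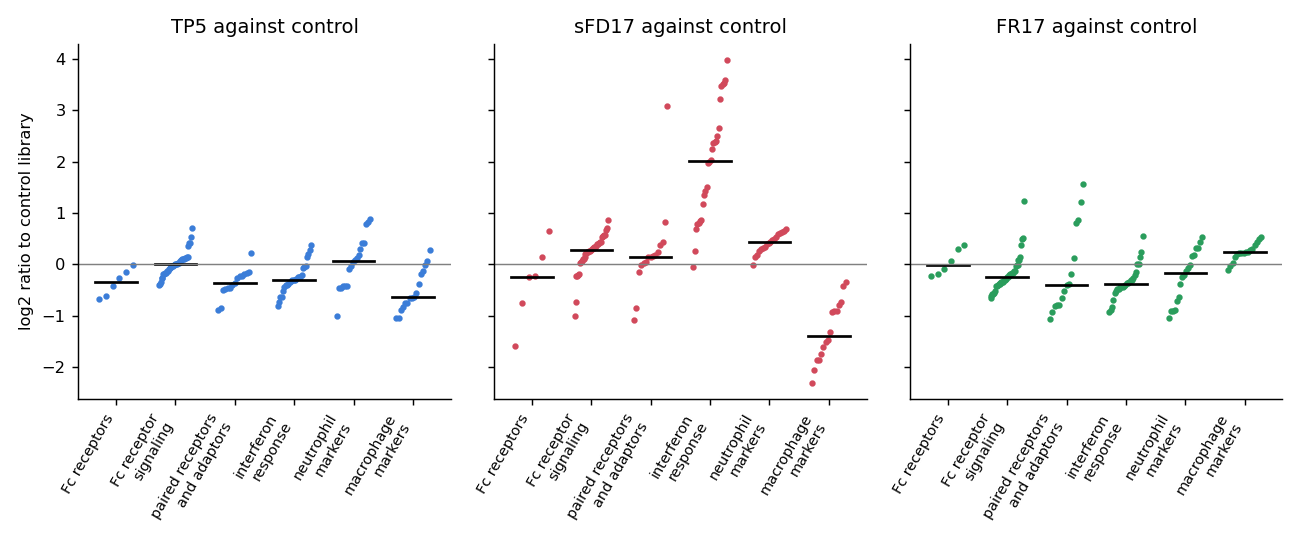
Log2 ratio to control of single genes in the Fc receptor family, Fc receptor signaling, paired receptors and adaptors, interferon response, neutrophil marker and macrophage marker lists, with 1 panel per peptide library; points are genes and black lines are medians. In sFD17 the interferon median is 2.01 and the macrophage median -1.40, and the Fc receptors lie between -1.60 and 0.65.

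The genes most like each member were found by the Euclidean distance between their 3 log2 ratios to control, among 7801 genes with at least 100 counts in every library. For Fcgrt they were the chemokine gene Ccl2 (distance 0.0449), C1qb, a complement gene in the macrophage list (0.163), and Pros1 (0.166). For Fcgr4 they were H2-T23, a nonclassical MHC class I gene (0.0220), Tmem110 and Tspo, and for Fcgr2b Dnase1l1 (0.0212), Psmc6 and Rnf150. For Fcgr1 they were Tcf7l2 (0.115), Cavin1 and Sod3, for Fcgr3 Gpatch2 (0.0261), Fam174a and Prdm1, and for Fcer1g Pigl (0.0444), Mroh1 and Pitpnc1. Few genes lay near Fcgrt, with 51 within a distance of 0.5, while 3021 lay as near to Fcer1g. The distance rests on 4 single libraries that share 1 control.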

How the data were processed

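mRNA libraries of lung CD11b+Ly6g+ MDSCs, 1 per group, were analysed. The deposited values are unnormalized gene-level read counts that the authors made, with coordinates and lengths. The submitters' processing notes name HISAT2 2.0.5, StringTie 1.3.3b, featureCounts 1.5.0-p3, edgeR 3.18.1 and build GRCm38.p6; their settings, strand use included, are not given in the sources used here. GENCODE M21 held 54409 of the 54532 identifiers, 53499 with unchanged coordinates. Where a symbol had several rows (100 symbols, no listed gene), the most counted row was kept.

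Groups followed the labels. With R 4.3.3 and edgeR 4.0.16, log2 ratios were computed for each pair of libraries from TMM-scaled CPM with a prior count of 2, over the 16367 genes with at least 10 counts in 1 library, and a gene was counted at a ratio of at least 2-fold. The quasi-likelihood test cannot be fitted to 1 library per group, so p-values were used only in the alternatives below. Intervals are 95% exact Poisson or conditional binomial intervals. Python 3.11.15, pandas 2.3.3, numpy 2.4.6, Biopython 1.88 and matplotlib 3.10.9 were used for sequences, coding alignments and figures. The procedure was tested on simulated data.

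Named genes were the members; in each pathway list, per comparison with control, the 2 genes with the largest absolute log2 ratio given 50 or more counts in either library; the 3 genes most like each member, symbols starting with Gm and a digit or ending in Rik left out; and the sort markers. B2m and Tyrobp were named outside the rule, for their roles, and other exceptions are marked. A gene that this rule selects is not reported here. Members and lists were chosen with earlier results of these data known. Alternatives were DESeq2 1.42.0 size factors, library size alone, a prior count of 0.5, other count filters, a 1.5-fold threshold and edgeR's exact test. Its dispersion was a coefficient of variation set at 0.4, or a trend estimated with the 4 libraries treated as replicates of a single group. The filter of 400 counts in every library was chosen after seeing the data.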

Additional observations from a re-analysis of the deposited data

How the results depend on the processing

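With 1 library per group, no replicate could be left out and no test against replicate spread could be run, and intervals cover counting error only. No paired analysis was possible because each group holds 1 library. Members past the threshold numbered 0 in TP5, 1 in sFD17 and 0 in FR17 against control, 1 in FR17 against sFD17, 0 in FR17 against TP5 and 0 in sFD17 against TP5. A 1.5-fold threshold, which 20.8% to 46% of all genes passed, gave 2 in TP5 and 3 in sFD17 against control, 3 in FR17 against sFD17, 2 in FR17 against TP5 and 3 in sFD17 against TP5. Library size alone gave 2 in FR17 against sFD17, 2 in FR17 against TP5 and 1 in sFD17 against TP5, where 4990, 1913 and 2355 of the 16367 genes passed. Calls by edgeR's exact test at an unadjusted p under 0.05, which rest on an assumed or borrowed dispersion and compare single libraries, gave 1 in FR17 against TP5 with the trended dispersion (Fcgr1; 3.67% of all genes) and 0 in sFD17 against control with a coefficient of variation of 0.4 (2.37%). Fcgrt was called in sFD17 against control with the trended dispersion (4.83%), and in FR17 against sFD17 with both (12.7% and 5.07%). The activating to inhibitory ratio in control, TP5, sFD17 and FR17 was 0.573, 0.486, 1.35 and 0.555 without Fcgr3 and 7.64, 6.06, 13.3 and 6.65 per kilobase, with sFD17 highest each time.

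Library size alone turned the sign of 7 of 36 member ratios, none above 0.37 in size, and shifted the median of all genes by 0.05 in TP5, -0.21 in sFD17 and 0.24 in FR17. Relative to that median 1 of 36 turned, Fcgr3 in FR17 against sFD17. DESeq2's size factors and a prior count of 0.5 turned 0 of 36. Genes past 2-fold in TP5, sFD17 and FR17 against control numbered 1338, 1930 and 1225, against 3567, 4165 and 2928 with no filter on low counts, 494, 916 and 453 with at least 10 counts in every library and 15, 148 and 41 with at least 400.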
